A study of Mus musculus with 28 samples.

Results

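The comparison described here set spleen RNA of mice without PPARg in cells that express an MMTV-Cre transgene (Null) against spleen RNA of mice that keep the gene (WT), all after a challenge with lipopolysaccharide (LPS), a component of the outer membrane of Gram-negative bacteria that is sensed by TLR4. The arrays were chosen by their labels alone: 8 of the 28 arrays of the series carry LPS and belong to the experiment with both genotypes, 4 Null and 4 WT. Within each genotype 2 arrays came from mice on a control diet and 2 from mice fed abscisic acid (ABA), which plants make as a stress hormone. All mice of both genotypes carry floxed alleles of Pparg. The Null mice are positive and the WT mice negative for MMTV-Cre, so WT here means floxed without the recombinase. The mouse mammary tumour virus promoter is used to delete genes in epithelia and blood cells, and the labels describe the deletion in one place as spleen-specific and in another as specific to epithelial and immune cells. The labels used here give no age, LPS dose or time after LPS, and leave unsaid whether each array stands for an animal of its own. The p-values therefore reflect the spread among these 8 samples alone. In each Null diet group the 2 arrays differed in the sex-linked gene Xist (2.24 and 12.83 on the control diet, 2.24 and 12.22 on ABA). Those arrays were thus not repeats of the same animal. In each WT diet group the 2 arrays shared their Xist level, and there the spread may be technical.

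PPARg is a nuclear receptor that pairs with a retinoid X receptor (RXR), binds fatty acid derivatives and switches on genes of lipid uptake and storage. In macrophages it is also known for restraining inflammatory transcription. The mouse spleen filters blood, holds B and T cells in its white pulp, and in its red pulp both recycles old red cells and makes new ones, a process that expands under stress and is sensitive to inflammation.

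Each value is the authors' log2 expression value of a probe set, on which a difference of 1 means 2-fold, and each gene is represented by 1 probe set. A gene was tested when it stood over 1 log2 unit above the lowest value of the experiment (2.24) on at least 4 of the 8 arrays, which left 9865 of 18193 genes. Values at the lowest level made up 36.1% to 37.6% of each of the 8 arrays, which correlated with each other at 0.981 to 0.995. Some probe sets also repeat a low value of their own on many arrays: 1053 of the 9865 genes (10.7%) had at least 4 of the 8 arrays within 0.01 of 1 value. The number of arrays limits the precision. Ms4a1, the B cell gene for CD20, lay at 12.25 to 13.16 on all 8 arrays. Xist and the Y-linked genes split each genotype evenly, 2 arrays high in Xist and 2 not, but in WT the 2 control diet arrays were high (13.07 and 12.61) and the 2 ABA arrays at the lowest value, whereas each Null diet group held 1 of each. Diet and Xist level can therefore not be told apart in WT, while the genotype difference averaged over diets is balanced for Xist.

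No gene passed the adjusted threshold of 0.05 for Null against WT with LPS (0 of 9865, 0%; smallest adjusted p = 0.585 by limma). At an unadjusted p under 0.05, 314 genes (3.18%) read higher in Null and 361 (3.66%) lower, and the 4 Null arrays lay entirely above the 4 WT arrays for 160 genes (1.62%) and entirely below for 104 (1.05%). With arrays centred on their medians these counts were 390 and 252, and after quantile normalisation 378 and 286, so the balance of the directions depends on the scaling. Among gene lists with at least 8 tested members, those of red cell precursors and of dividing cells had the highest medians of Null minus WT, 2.33 and 1.03, and that of neutrophils the lowest, -0.40. Because no gene was called, everything that follows describes levels in these 8 arrays and their order. A measured level in whole spleen also cannot tell fewer cells of a type from less RNA per cell.

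**Figure D1:**
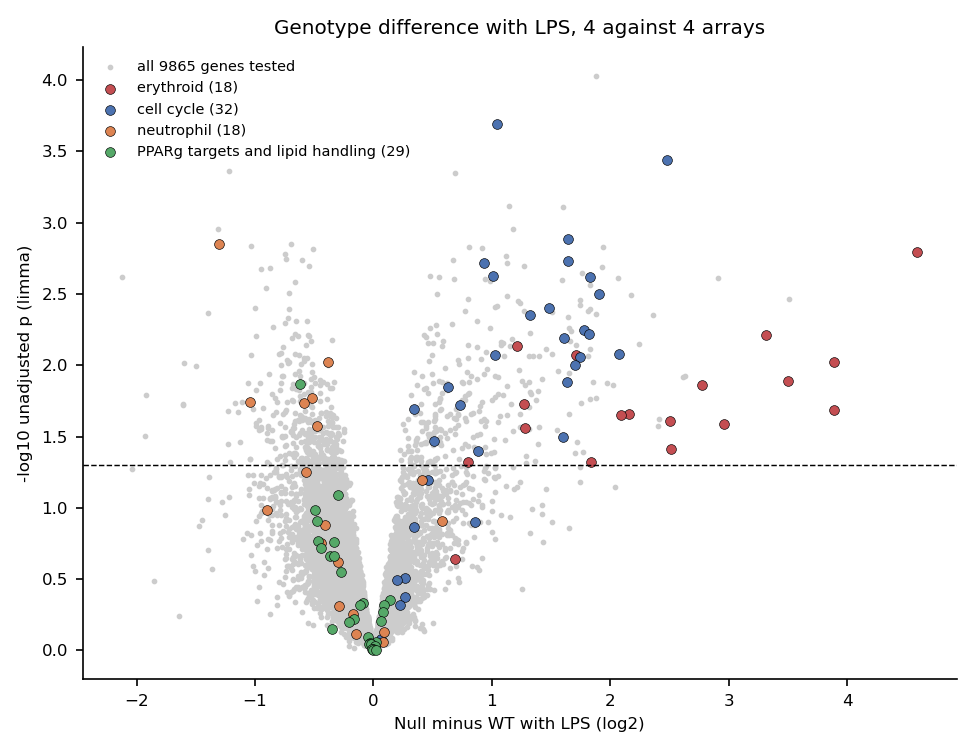
Difference of Null minus WT with LPS (x axis, log2) against the -log10 of the unadjusted limma p-value (y axis), for 9865 genes as grey points and 4 gene lists in colour; the dashed line marks 0.05. The erythroid and cell cycle points lie to the right of 0 without exception (18 and 32 genes).

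The erythroid list (haemoglobin synthesis, red cell membrane and the factors that direct them) was chosen with earlier results of these data known, so its direction is a description. Of its 23 genes 19 were matched to a probe set here and 18 were tested, Hba-a1 being left out by the filter. All 18 read higher in Null with LPS, 17 of them at an unadjusted p under 0.05 beside 3.18% of all genes, and 6 without overlap between genotypes beside 1.62%. The median difference was 2.33, against -0.08 over all genes tested. A member that is dim in WT could enter through its Null arrays alone, so these counts do not support the direction: Rhd, Epb42, Trim10 and Kel had 1 to 3 WT arrays at or under the filter's limit of 3.24. Among the 14 members above that limit on all 8 arrays the median was 1.96 and 13 had an unadjusted p under 0.05, and with no filter the median was 2.16 with 13 members. The promoters of the 2 list members with the smallest p among those found in the RefSeq promoter table (build GRCm38.p6, 250 bases before to 50 after the start) are printed because GATA1 and KLF1, the main erythroid factors, bind GATA sites and CACCC boxes. Capitals mark the GATA letters AGATAA or its variant AGATAG, as well as TGATAA and its variant TGATAG, and the CACCC letters CCNCNCCC, on either strand. The windows are chr4:134864286-134864585 on the plus strand for Rhd and chr2:121036828-121037127 on the minus strand for Epb42.
Rhd: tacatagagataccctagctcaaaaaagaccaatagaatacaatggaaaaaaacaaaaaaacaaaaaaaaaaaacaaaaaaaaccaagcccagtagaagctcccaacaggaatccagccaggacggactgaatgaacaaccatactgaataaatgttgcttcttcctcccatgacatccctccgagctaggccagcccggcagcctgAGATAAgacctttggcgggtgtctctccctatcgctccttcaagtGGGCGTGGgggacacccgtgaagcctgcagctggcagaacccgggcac
Epb42: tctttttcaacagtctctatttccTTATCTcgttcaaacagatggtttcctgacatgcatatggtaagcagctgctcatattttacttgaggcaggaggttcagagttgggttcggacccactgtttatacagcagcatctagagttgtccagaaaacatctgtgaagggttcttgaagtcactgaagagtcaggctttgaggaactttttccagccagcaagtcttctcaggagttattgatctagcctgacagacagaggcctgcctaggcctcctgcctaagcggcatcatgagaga
Of 14 erythroid members with a promoter in the table, 11 (78.6%) held a GATA match, beside 1470 of 8026 promoters of tested genes (18.3%). For the CACCC letters the share was 57.1%, beside 69.0%. A match is only a run of letters in this window, and it says nothing of binding in these spleens.

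Rhd, which encodes a red cell membrane protein of the Rhesus complex, had the largest difference. With LPS it read 3.43 and 3.05 in WT on the control diet and 3.23 and 4.32 in WT on ABA, against 9.88 and 7.35 in Null on the control diet and 5.83 and 9.31 in Null on ABA. Every Null array was above every WT array, and the fitted difference was 4.59 ± 0.91 (SE; unadjusted p = 0.00161, adjusted p = 0.585), with 2 of the WT values under the filter's limit. Without LPS the same gene lay at 9.34 to 12.5 in WT and 6.15 to 13.1 in Null. The WT arrays with LPS are thus the 4 lowest of the experiment for this gene, and the Null arrays with LPS overlap the lower part of the range without LPS.

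Epb42, a protein of the red cell membrane skeleton, showed the same order. Its WT values with LPS were 2.95 and 2.27 on the control diet and 2.85 and 3.25 on ABA, the second of them next to the lowest value of the experiment, and its Null values were 7.85, 6.63, 3.43 and 6.65 in the same order. Since 3 of the 4 WT values lie under the filter's limit, the size of its difference is not given, and the first Null array on ABA (3.43) was barely above the highest WT array (3.25). Tfrc, the transferrin receptor that brings iron into precursors, read 10.19 to 10.95 in WT and 11.26 to 12.68 in Null, with no overlap (1.21 ± 0.32, adjusted p = 0.618). Alas2, the first enzyme of erythroid haem synthesis, read 10.19 to 11.73 in WT and 11.73 to 13.32 in Null, so that the highest WT and the lowest Null array met (1.71 ± 0.47).

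The transcription factors followed. Klf1 read 4.99 and 3.55 in WT on the control diet, 4.61 on both WT arrays on ABA, 9.36 and 6.80 in Null on the control diet, and 4.61 and 8.84 in Null on ABA. The 4.61 that 3 of these arrays share is a value the probe set repeats, so only 3 Null arrays stood clear of WT, and the difference was 2.96 ± 1.04. Gata1 read 4.61 to 5.67 in WT and 5.82 to 7.63 in Null (1.28 ± 0.46), and Epor, the erythropoietin receptor, 3.64 to 4.79 and 4.88 to 6.24 (1.27 ± 0.41), both without overlap. Hemgn, a nuclear protein of erythroid differentiation, spread widely in both groups, 4.40 to 8.90 in WT and 7.96 to 12.51 in Null (3.89 ± 1.30).

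Among membrane and enzyme genes, Slc4a1, the anion exchanger of the red cell, read 8.11 to 10.42 in WT and 10.30 to 13.15 in Null (2.77 ± 0.84). Trim10, a ubiquitin ligase of late erythroid cells, differed by 3.89 ± 1.09, and Kel, a blood group endopeptidase, read 2.58 to 3.50 in WT, 3 of these values under the filter's limit, and 3.43 to 8.78 in Null. Rhag, Tspo2, Car2, Ermap and Car1 differed by 1.84 to 2.51, each with the groups overlapping. Ank1 (0.80 ± 0.33) and Sptb (0.69 ± 0.52), both of the membrane skeleton, had the smallest differences, and 3 arrays of each repeat 1 value. Sptb was the 1 tested member that did not reach an unadjusted p under 0.05. The first Null array on ABA had a mean of 6.89 over the list, close to the WT arrays (5.46 to 6.80), while the other Null arrays had means of 8.36 to 9.93.

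**Figure D2:**
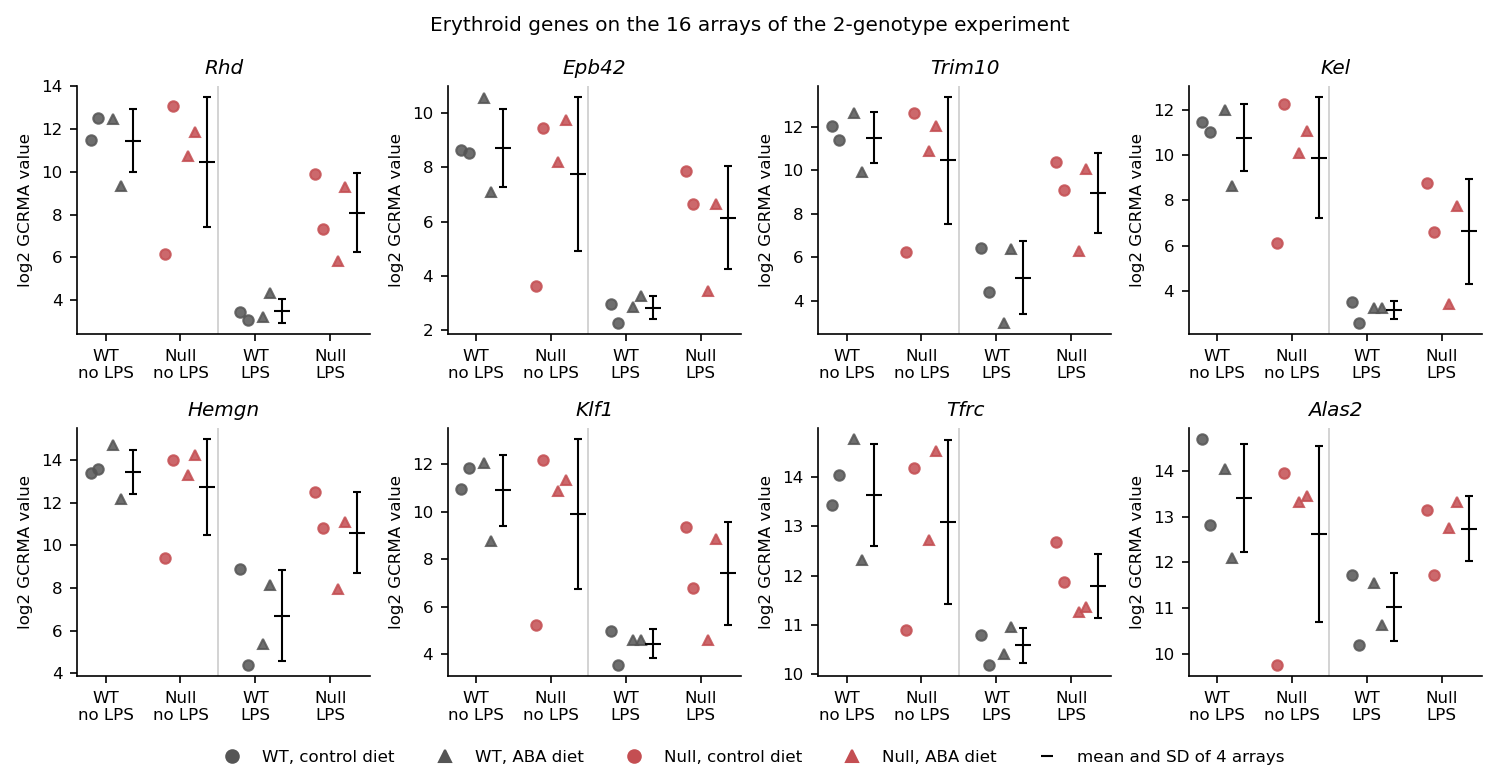
Log2 value (y axis) of 8 erythroid genes on each of the 16 arrays of the experiment, by genotype and LPS (x axis); circles are the control diet, triangles the ABA diet, and bars the mean and SD of 4 arrays. With LPS the WT arrays of Rhd lie at 3.05 to 4.32 and the Null arrays at 5.83 to 9.88, while without LPS the genotypes overlap and 1 Null array lies at 6.15.

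The list median was 3.04 on the control diet and 1.52 on ABA, and all 18 members were positive on each diet. Within diets 10 members were higher at an unadjusted p under 0.05 on the control diet and 1 on ABA, beside 518 and 203 of 9865 genes. In the genotype by diet test 0 of 18 reached an unadjusted p under 0.05, beside 13.2% of all genes. Without LPS none of 18 members reached an unadjusted p under 0.05, beside 0.322% of genes higher and 0.302% lower, and the list median was -0.74, with list means of 9.38 to 12.21 in WT and 7.19 to 12.13 in Null. In the test of genotype by LPS over 16 arrays the list median was 3.01 and 8 of 18 members were positive at an unadjusted p under 0.05, beside 1.63% of genes, with the smallest adjusted p at 0.938. The count of 17 rests on the full set of arrays. It was 7 without the first Null array on the control diet, 7 without the second Null array on ABA, 9 without the second WT array on the control diet and 11 without the second WT array on ABA, and 10 when the spread was taken from all 16 arrays, while the list median stayed between 1.71 and 3.06 in these leave-outs.

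The cell cycle list (cyclins, mitotic kinases, kinetochore and replication genes) was the other group higher in Null, and it too was chosen with earlier results known. Of 36 genes 35 were matched to a probe set and 32 were tested, with Plk1, Kif20a and Tyms left out by the filter. All 32 differences were positive, 24 at an unadjusted p under 0.05 beside 3.18% of all genes, 13 without overlap beside 1.62%, and the median was 1.03. Array means over the list were 6.97 to 7.78 in WT and 8.02 to 9.25 in Null, so that even the lowest Null array stood above the highest WT array. Genes of late cell cycle are commonly controlled through a CHR element (TTTGAA or TTCGAA) and CCAAT boxes, and the promoters of the 2 members with the smallest p in the table show both, in capitals. They lie at chr4:118437294-118437593 (Cdc20) and chr2:127831810-127832109 (Bub1), both on the minus strand of GRCm38.p6.
Cdc20: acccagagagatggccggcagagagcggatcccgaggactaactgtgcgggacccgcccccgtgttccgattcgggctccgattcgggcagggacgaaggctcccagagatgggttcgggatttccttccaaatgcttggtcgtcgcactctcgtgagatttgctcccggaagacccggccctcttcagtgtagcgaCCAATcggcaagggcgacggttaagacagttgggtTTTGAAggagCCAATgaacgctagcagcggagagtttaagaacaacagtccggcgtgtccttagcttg
Bub1: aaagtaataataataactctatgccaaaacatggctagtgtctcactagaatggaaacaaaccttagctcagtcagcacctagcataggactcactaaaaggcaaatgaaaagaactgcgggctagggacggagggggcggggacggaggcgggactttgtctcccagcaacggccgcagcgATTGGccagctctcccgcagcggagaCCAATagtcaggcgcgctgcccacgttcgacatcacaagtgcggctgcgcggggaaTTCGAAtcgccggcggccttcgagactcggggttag
Among 27 cell cycle members with a promoter in the table, 15 (55.6%) held a CHR match, beside 1105 of 8026 (13.8%), and 22 (81.5%) held CCAAT, beside 3093 (38.5%). The GATA letters were found in 14.8% of them, beside 18.3%.

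Cdc20, the activator of the anaphase-promoting complex, had the smallest p of the list. It read 8.95 and 8.62 in WT on the control diet and 8.76 and 8.83 on ABA, and 10.18 and 9.79 in Null on the control diet and 9.64 and 9.69 on ABA. Every Null array was above every WT array, and the difference was 1.04 ± 0.14 (unadjusted p = 0.000202, adjusted p = 0.585). Ccna2, cyclin A2, differed most, by 2.48 ± 0.38: 7.82 and 6.70 in WT on the control diet, 5.38 and 5.80 on ABA, 10.13 and 9.04 in Null on the control diet, 7.72 and 8.74 on ABA. The highest WT array (control diet) was above the lowest Null array (ABA), but within each diet both Null arrays lay above both WT arrays.

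Other mitotic genes had the same order. Bub1, a spindle checkpoint kinase, read 4.05 to 5.38 in WT and 6.17 to 7.52 in Null (1.64 ± 0.31). Birc5, survivin of the chromosomal passenger complex, read 6.56 to 7.40 and 7.76 to 9.49 (1.64 ± 0.33), and Top2a, the topoisomerase that untangles sister chromatids, 8.96 to 9.59 and 9.89 to 10.74 (0.93 ± 0.19). Kif23, a kinesin of cytokinesis, differed by 1.01 ± 0.22, Aurka, a spindle pole kinase, by 1.78 ± 0.45, Cenpe, a kinetochore motor, by 1.48 ± 0.35, and Mki67, the proliferation antigen Ki-67, by 1.82 ± 0.47, each without overlap.

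Genes of the start of S phase were split. Ccne2, cyclin E2, read 4.73 to 5.39 in WT and 6.14 to 8.49 in Null (1.90 ± 0.43), Rrm2, a subunit of ribonucleotide reductase, 9.29 to 9.88 and 10.19 to 11.95 (1.32 ± 0.32), and Cdc6, which loads the replicative helicase, 4.39 to 6.20 and 6.46 to 8.80 (1.70 ± 0.48). The helicase subunits themselves differed little: Mcm4 by 0.63 ± 0.19 and Mcm5 by 0.51 ± 0.19, but Mcm7 by 0.27 ± 0.24, Mcm3 by 0.27 ± 0.32, Mcm2 by 0.22 ± 0.30 and Mcm6 by 0.06 ± 0.28. Pcna, the polymerase clamp, read 12.23 to 13.02 in WT and 12.28 to 13.33 in Null (0.20 ± 0.19). Whether the mitotic and helicase genes differ from each other in their genotype difference was not tested.

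**Figure D3:**
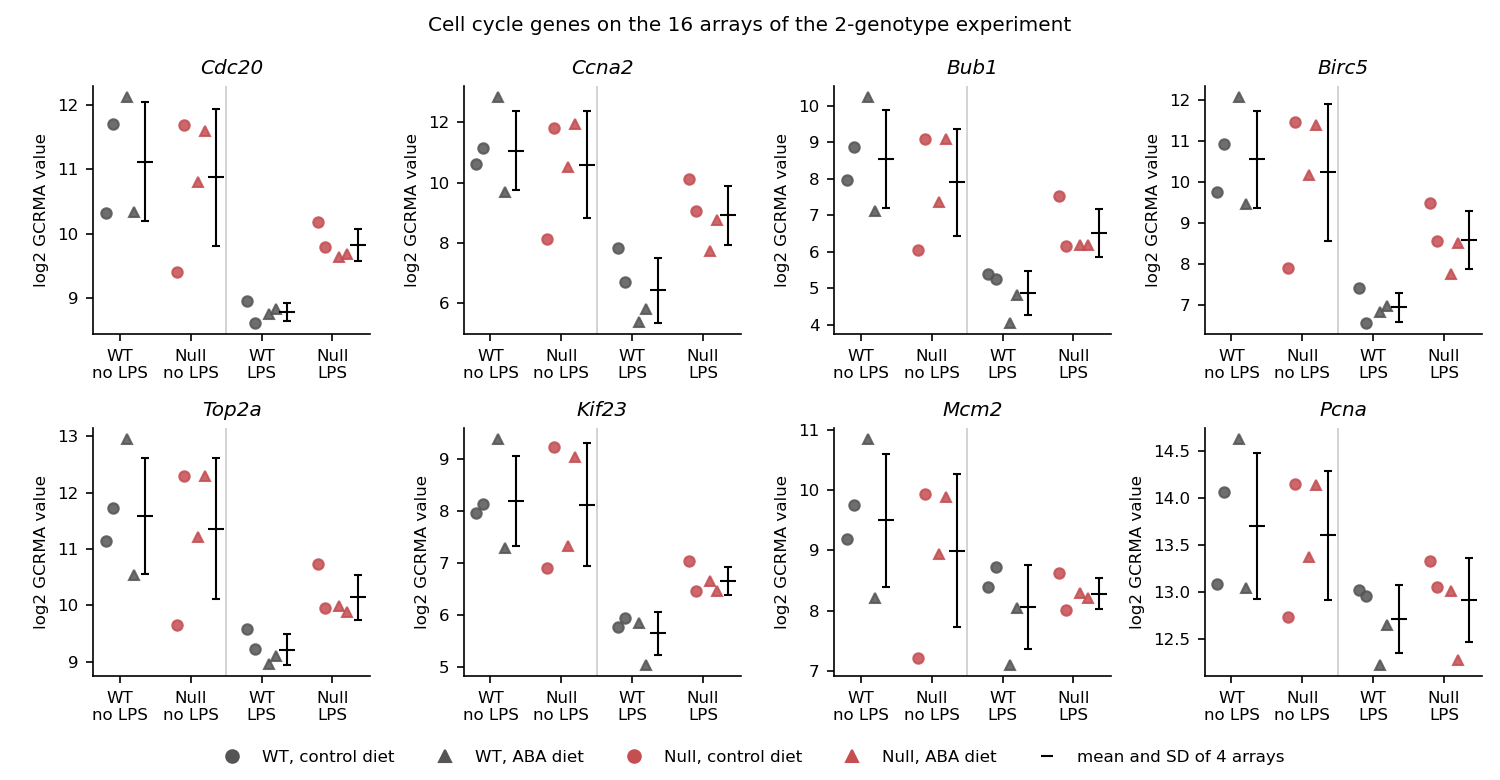
Log2 value (y axis) of 8 cell cycle genes on the 16 arrays, by genotype and LPS (x axis); circles are the control diet, triangles the ABA diet, and bars the mean and SD of 4 arrays. Cdc20, Bub1, Birc5, Top2a and Kif23 separate the genotypes with LPS, whereas Mcm2 and Pcna overlap, with differences of 0.22 and 0.20.

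Without LPS the list median was -0.41 with 0 of 32 members at an unadjusted p under 0.05, beside 0.322% of genes higher and 0.302% lower. The first Null array on the control diet without LPS had a list mean of 7.76. The other Null arrays had 9.57 to 10.77 and the WT arrays 8.97 to 11.4. The genotype by LPS median was 1.49, beside -0.16 over all genes. In that test 3 of 32 members were positive at an unadjusted p under 0.05, beside 1.63% of genes, with no adjusted p below 0.938. The median was 1.39 on the control diet, with 28 of 32 members positive, and 0.89 on ABA, with 32 of 32. Leaving out 1 array at a time gave 19 to 24 members at an unadjusted p under 0.05, but taking the spread from all 16 arrays gave 6. The first Null array on the control diet was the highest for the cell cycle mean (9.25) and for the erythroid mean (9.93). With the erythroid mean of each array as a covariate the cell cycle median was 0.48 and 3 members reached an unadjusted p under 0.05. That mean itself separated the genotypes (5.46 to 6.80 in WT, 6.89 to 9.93 in Null), so it takes up genotype difference of other genes too. The fit can therefore not tell the part of the erythroid cells in the cell cycle result, which was not tested.

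Of the 10 genes of smallest p that read higher in Null, 3 belong to the cell cycle list (Cdc20, Ccna2, Bub1) and none to another list. Pold1, the catalytic subunit of DNA polymerase delta, read 7.34 to 7.69 in WT and 8.23 to 8.28 in Null (0.69 ± 0.11). Spc25 of the kinetochore differed by 1.60 ± 0.28, Smc2 of condensin by 1.18 ± 0.22, Esco2, which acetylates cohesin, by 1.94 ± 0.38, Ube2t, a conjugating enzyme of DNA crosslink repair, by 0.81 ± 0.16 and Cip2a, an inhibitor of protein phosphatase 2A, by 1.14 ± 0.20. The remaining gene, Dnaja4, a co-chaperone of heat shock proteins, had the smallest p of all: 4.57, 3.98, 4.18 and 4.12 in WT against 6.39, 5.59, 6.01 and 6.39 in Null (1.88 ± 0.23, unadjusted p = 9.3e-05, adjusted p = 0.585). Without LPS Dnaja4 lay at 6.48 to 8.94 in WT and 5.81 to 8.43 in Null, above every WT array with LPS.

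The 10 genes of smallest p that read lower in Null belong to no list except Il1f9, of the neutrophil list. Il1f9, an epidermal and myeloid cytokine of the interleukin-1 family, read 5.03 and 4.77 in WT on the control diet and 6.23 and 6.38 on ABA, and 4.42, 3.65, 4.73 and 4.41 in Null in the same order (-1.30 ± 0.25, adjusted p = 0.585). It lay at 2.70 to 3.12 in both genotypes without LPS. Mxra8, a surface protein of stromal and other cells, read 5.71 to 6.81 in WT and 3.94 to 5.58 in Null (-1.31 ± 0.24), and Eral1, a chaperone of mitochondrial ribosomal RNA, 7.31 to 7.96 and 6.32 to 6.90 (-1.03 ± 0.20). Slco2a1, a prostaglandin transporter, differed by -0.51 ± 0.10, from 8.72 to 8.98 in WT to 8.29 to 8.42 in Null, and Med12, a Mediator subunit, by -0.60 ± 0.12. Gem, a small GTPase, differed by -0.74 ± 0.15, Clic5, of the chloride channel family, by -0.75 ± 0.15, Afap1, which binds actin filaments, by -0.70 ± 0.14, and Snhg3, a host of small nucleolar RNA, by -0.54 ± 0.11. Gstz1, an enzyme of tyrosine breakdown, differed by -0.87 ± 0.18, but its Null values were 3.73 on both control diet arrays and 3.35 on both ABA arrays, and 1 WT array also read 3.73.

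Neutrophil genes leaned lower in Null. Of 18 tested, 14 had negative differences and 6 of these an unadjusted p under 0.05, beside 3.66% of all genes, with a median of -0.40. S100a8, a calcium-binding protein abundant in neutrophils, read 14.11 and 14.34 in WT on the control diet and 14.99 and 15.11 on ABA, against 13.88, 13.78, 14.79 and 14.56 in Null (-0.38 ± 0.11, adjusted p = 0.631). Within each diet both Null arrays were below both WT arrays, and in both genotypes the ABA arrays were above the control diet arrays. S100a9, its partner, differed by -0.48 ± 0.17, Csf3r, the receptor for granulocyte colony-stimulating factor, by -0.52 ± 0.16, Lcn2, the iron-withholding lipocalin, by -0.59 ± 0.19, and Mmp8, neutrophil collagenase, by -1.04 ± 0.34. Among other granule genes, Camp differed by 0.08 ± 0.48, Ngp by -0.30 ± 0.23 and Mpo by 0.58 ± 0.33, the last with 4 arrays at a repeated value. The count of 6 became 3 when arrays were centred on their medians, 2 with the spread of all 16 arrays and 1 without the diet term.

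The receptor itself was not measurable. Pparg read 2.32, 2.45, 2.45 and 2.31 in WT and 2.45 on all 4 Null arrays, within 0.5 of the lowest value on 8 of 8 arrays, so these values neither show nor check the deletion. Without LPS it read 2.45 to 3.56 in WT and 2.45 to 3.31 in Null. Ppara was also at or near the lowest value on 8 of 8 arrays. Ppard read 3.80 to 4.03 in WT and 3.55 to 4.40 in Null (0.17 ± 0.19). Its probe set repeats 3.80 on 4 of these 8 arrays and on 8 of the 16, so it too is hardly measured. Lancl2, a proposed ABA receptor, read 5.43 to 7.14 in WT and 6.23 to 7.47 in Null (0.39 ± 0.40). Of 13 receptors and coregulators tested none had an unadjusted p under 0.05, and the differences ran from -0.29 (Nrip1, a corepressor) to 0.39.

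PPARg target and lipid genes read close in both genotypes. Of 40 listed, 32 had a probe set and 29 were tested, with 0 higher and 1 lower at an unadjusted p under 0.05, beside 3.18% and 3.66% of all genes, and a median of -0.09. That 1 gene was Lipe, hormone-sensitive lipase, at 5.56, 5.53, 5.25 and 4.61 in WT and 4.65, 4.61, 4.61 and 4.61 in Null (-0.62 ± 0.19, adjusted p = 0.641). The value 4.61 recurs on 10 of the 16 arrays, so its Null level is no more than the low value of this probe set. Cd36, a fatty acid transporter and classical target, read 9.44 to 10.24 in WT and 9.39 to 10.42 in Null (-0.05 ± 0.19), and Plin2, which coats lipid droplets, 11.58 to 12.12 and 11.67 to 11.91 (0.00 ± 0.14). Abca1 and Abcg1, which export cholesterol, differed by -0.04 ± 0.32 and 0.02 ± 0.15, Angptl4, an inhibitor of lipoprotein lipase, by -0.11 ± 0.15, and Pdk4, which slows glucose oxidation, by -0.48 ± 0.27.

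Fabp4 and Lpl, targets that are also fat cell genes, spread widely within each genotype. Fabp4 read 8.06, 9.50, 11.11 and 8.61 in WT and 10.74, 9.82, 7.88 and 7.44 in Null (-0.35 ± 0.92). Adipoq, which only fat cells make in quantity, read 2.36, 5.98, 7.61 and 2.59 in WT and 8.39, 5.51, 2.36 and 2.36 in Null (0.02 ± 1.68). Adipoq was thus measured on 4 arrays, 2 of each genotype, and at or near the lowest value on the other 4, on which Fabp4 still read 7.44 to 8.61; 6 of 16 listed adipocyte genes were tested, and their array means ran from 4.80 to 8.96 in WT and 4.49 to 8.19 in Null. The array highest for Adipoq is the first Null array on the control diet, which was also highest for the erythroid and cell cycle means. Without it and the WT array highest for Adipoq, the erythroid median was 1.91 with 4 members at an unadjusted p under 0.05 and the cell cycle median 0.90 with 15, and the part of fat tissue in these results was not tested otherwise. Pancreatic genes, which were high on 2 Null arrays without LPS (Cela3b at 9.91 and 13.85), were not so with LPS (Cela3b at 5.69 to 6.53), and no liver gene of 11 with a probe set was tested.

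Of 26 type I interferon genes 1 was higher at an unadjusted p under 0.05, a share close to the 3.18% of all genes. It was Rsad2, the antiviral protein viperin: 13.73, 13.06, 13.65 and 13.82 in WT against 15.07, 14.41, 14.35 and 15.38 in Null (1.24 ± 0.29, adjusted p = 0.618), with no overlap. Ddx58, the RNA sensor RIG-I, read 10.05 to 10.22 in WT and 9.51 to 9.98 in Null (-0.36 ± 0.12), also with no overlap but lower. Over all genes 1.62% were higher and 1.05% lower without overlap. Differences over the list ran from -0.63 to 1.24, and 19 of 26 were negative with a median of -0.29. Ifit1 (-0.02 ± 0.36), Irf7 (-0.46 ± 0.30) and Oas1a (-0.52 ± 0.30) overlapped. For Rsad2, Null without LPS read 10.58 to 14.84 and WT 12.96 to 14.63, so its levels with and without LPS overlapped. The list mean in WT was 6.32 to 6.70 without LPS and 10.2 to 10.86 with it. In WT the probe set of Rsad2 thus did not rise with LPS as its list did.

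All 18 tested genes induced by interferon gamma were negative, with a median of -0.21 beside -0.08 over all genes. The median was -0.47 on the control diet (1 of 18 positive) and 0.03 on ABA (9 of 18 positive), beside -0.18 and 0.03 over all genes. In the genotype by diet test 2 of 18 reached an unadjusted p under 0.05, a share close to the 13.2% of all genes. Averaged over diets, 1 of the 18 was lower at an unadjusted p under 0.05, beside 3.66% of all genes. It was Tap1, which loads peptides for MHC class I (10.51 to 11.64 in WT, 9.63 to 10.84 in Null, -0.95 ± 0.34). Among 26 cytokines and chemokines 2 were lower at that level. Il15, a cytokine for natural killer and memory T cells, read 7.46, 7.42, 6.20 and 6.42 in WT and 5.34, 6.09, 6.01 and 6.17 in Null (-0.97 ± 0.34), without overlap, beside 1.05% of all genes. Cxcl2, a neutrophil chemokine, read 8.17 to 9.03 and 6.65 to 8.81 (-0.95 ± 0.34). The main cytokines of the LPS response spread within groups: Tnf differed by -0.12 ± 0.62, Il1b by -0.31 ± 0.23, Il6 by 0.50 ± 1.02, Il10 by -0.13 ± 0.92 and Ifng by -1.36 ± 1.12.

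TLR4 and NF-kB genes were negative in 25 of 29 cases with a median of -0.21. Within diets the median was -0.42 on the control diet and -0.01 on ABA, beside -0.18 and 0.03 over all genes, and on ABA 14 of 29 were positive. At an unadjusted p under 0.05 stood 1 of the 29, a share close to the 3.66% of all genes: Traf1, an adaptor of TNF receptors, at 8.89 to 10.15 in WT and 7.95 to 9.29 in Null (-0.88 ± 0.26). Nfkbia and Tnfaip3, feedback inhibitors, differed by -0.08 ± 0.15 and -0.16 ± 0.16. Of 22 immediate-early genes 18 were negative; Klf4 (-0.49 ± 0.15), Dusp1 (-0.45 ± 0.18) and Junb (-1.04 ± 0.42) were lower and Egr2 (0.32 ± 0.12) higher at an unadjusted p under 0.05, beside 3.66% and 3.18% of all genes. Of 16 acute phase genes Lcn2 and Serpina3n (-0.58 ± 0.22), a protease inhibitor, were lower at an unadjusted p under 0.05. These shares are read beside a background in which 6310 of 9865 genes were negative.

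Markers of the other spleen cells gave smaller differences. B cell genes had a median of -0.11 over 15, with Cd37, a tetraspanin, at -1.14 ± 0.38 and Ms4a1, which encodes CD20, at 0.05 ± 0.25. T cell genes were negative in 15 of 17 (median -0.27), with Cd3g, of the T cell receptor complex, at 7.99 to 8.26 in WT and 7.24 to 7.91 in Null without overlap (-0.43 ± 0.16), while Cd8a differed by 0.00 ± 0.15. Cytotoxic genes had a median of -0.36 over 11, with Gzmb, granzyme B, at -0.58 ± 0.21. Endothelial and stromal genes, averaged over diets, were negative in 18 of 18 (median -0.38). Col4a2, a basement membrane collagen, at -0.43 ± 0.15 was the 1 member at an unadjusted p under 0.05. Within diets 2 of the 18 were positive on the control diet (median -0.48) and 5 on ABA (median -0.19). Over all genes 6310 of 9865 were negative, 3.66% were lower at an unadjusted p under 0.05 and 1.05% lay lower without overlap.

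Macrophage genes leaned the other way, 11 of 16 positive with a median of 0.17 and none at an unadjusted p under 0.05. Over all genes 3555 of 9865 were positive. Cd5l, a macrophage survival protein, read 7.31, 6.95, 10.20 and 7.23 in WT and 9.91, 8.80, 8.93 and 9.40 in Null (1.34 ± 0.71), where 1 WT array on ABA stood with the Null arrays. Spic, the factor of iron-recycling macrophages, differed by 0.53 ± 0.38, Hmox1, which breaks down haem, by 0.24 ± 0.62 and Slc40a1, the iron exporter, by 0.30 ± 0.61. All 9 megakaryocyte genes were positive (median 0.34), none at that level. Only 2 genes of the epithelial list, which marks tissues where MMTV-Cre is active, were tested.

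**Figure D4:**
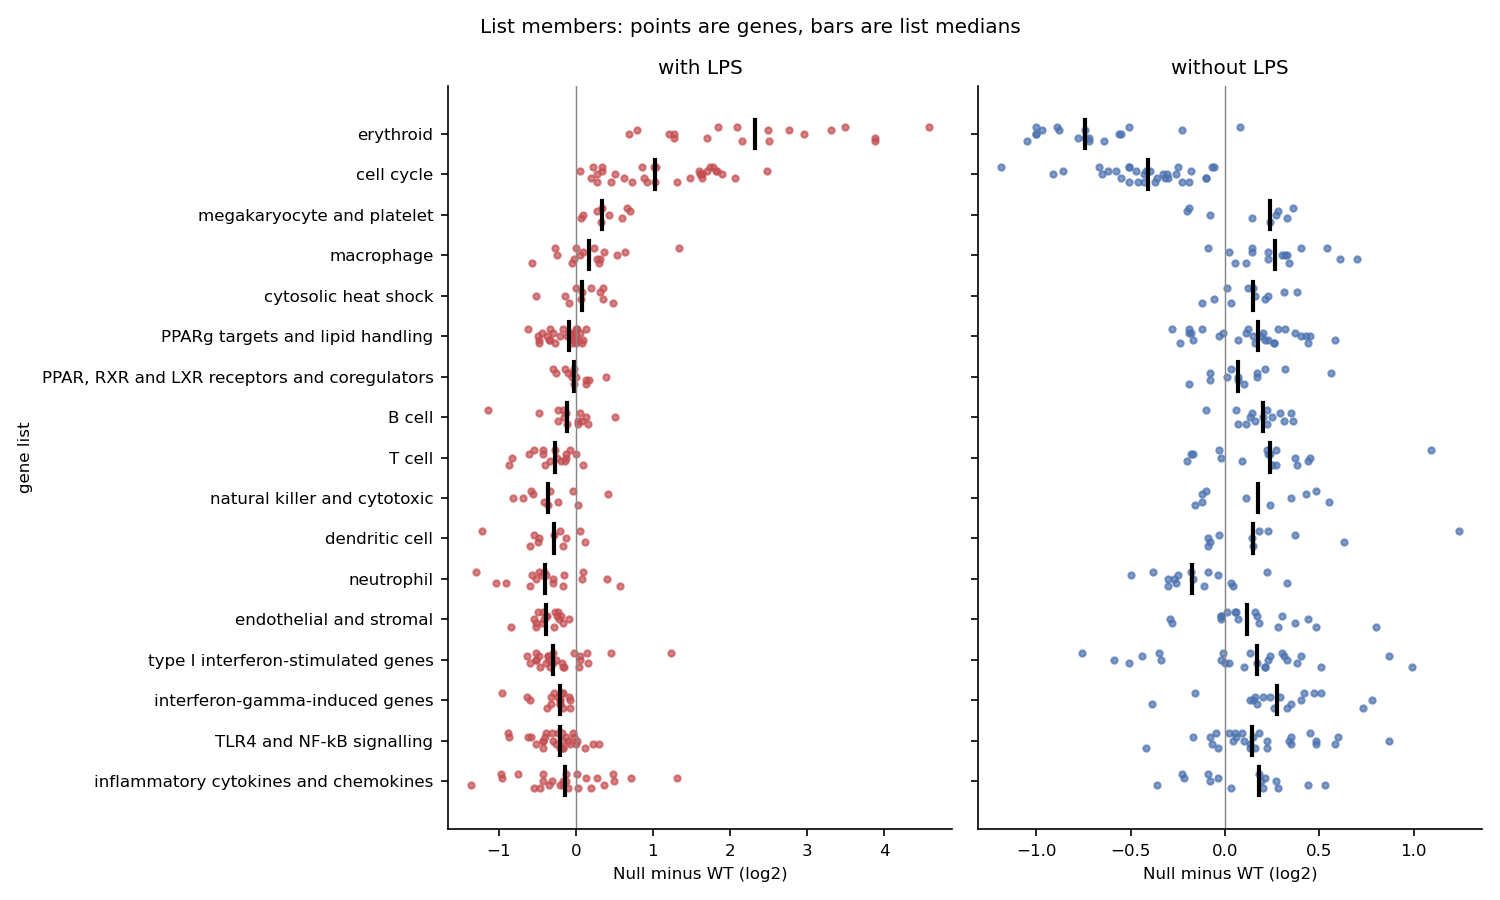
Null minus WT (x axis, log2) of the tested members of 17 lists (y axis), with LPS on the left and without LPS on the right, on different x scales; points are genes and bars list medians. The erythroid (2.33) and cell cycle (1.03) medians stand to the right with LPS and at -0.74 and -0.41 without it. Without LPS the first Null array on the control diet was the lowest for both list means (7.19 and 7.76).

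The genotype difference was also taken within each diet. There the genotypes are not balanced for Xist. On the control diet both WT arrays and 1 Null array were high in Xist, and on ABA neither WT array but 1 Null array was. Genotype and Xist level can therefore not be fully told apart within a diet. On the control diet 67.5% of genes were negative (median -0.18), with 518 higher and 1917 lower at an unadjusted p under 0.05 in a fit of 2 against 2 arrays; on ABA 44% were negative (median 0.03), with 203 and 103. The test of that dependence over the 8 arrays called no gene (0%), and 1306 genes (13.2%) had an unadjusted p under 0.05. With a term for high Xist, which in WT goes with the diet, 873 genes did, and leaving out 1 array gave 765 (without the second WT array on the control diet) to 2031 (without the second WT array on ABA), with 822 without the first Null array on the control diet. The immediate-early median was -0.68 on the control diet and 0.13 on ABA, that of B cells -0.59 and 0.41, of T cells -0.57 and -0.08, and of type I interferon genes -0.51 and 0.01. Other lists went the opposite way: the macrophage median was 0.57 on the control diet and -0.16 on ABA, that of megakaryocytes 0.62 and 0.02, of acute phase genes 0.15 and -0.29, and of the 6 adipocyte genes 1.12 and -2.47. The part of the adipocyte difference in the other lists was not tested. Of 33 lists, 14 had their lowest mean on the first Null array on the control diet and 14 their highest on the second WT array on the control diet.

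Csnk1e, a kinase of the circadian clock and Wnt signalling, had the largest difference among the genes named for this test. It read 6.29 and 6.20 in WT on the control diet, 5.81 and 6.32 on ABA, 3.65 and 3.52 in Null on the control diet and 6.71 and 6.83 on ABA. The Null control diet arrays alone were low, and the difference between diets was 3.36 ± 0.28 (adjusted p = 0.114). Elmo1, which activates Rac in migrating and engulfing cells, followed with 9.70 and 9.77, 8.87 and 8.80, 7.93 and 8.11, and 9.34 and 9.53 (2.31 ± 0.21, adjusted p = 0.114). Map3k14, the NF-kB-inducing kinase, read 6.30 and 6.47 only in WT on the control diet and 3.38 to 4.09 elsewhere (2.65 ± 0.31, adjusted p = 0.162), and Hdc, which makes histamine, read 3.37 on both Null control diet arrays and 4.73 to 6.55 elsewhere (2.38 ± 0.55, adjusted p = 0.254). Ttc7, Map4k1 and Armc7 differed by 2.43, 1.67 and 2.04 at an adjusted p of 0.162.

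Of the lists not yet described, oxidative phosphorylation had a median of -0.01 over 29 genes, chaperones of the endoplasmic reticulum -0.02 over 24, cholesterol and fatty acid synthesis -0.08 over 21 and ribosomal proteins -0.12 over 22, with no member of these lists at an unadjusted p under 0.05. MHC class II genes, which present antigen on B and dendritic cells, were negative in 13 of 14 with a median of -0.34, and dendritic cell genes in 9 of 11 with -0.28. Glucocorticoid-responsive genes were negative in 13 of 15 (median -0.25), beside 6310 of 9865 genes, and 2 of them, Dusp1 and Il1r2, had an unadjusted p under 0.05, beside 3.66% of all genes. Of 11 cytosolic heat shock genes (median 0.08), Dnajb1 (0.36 ± 0.14) and Dnaja1 (0.32 ± 0.13), both co-chaperones, were higher at that level, beside 3.18%.

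**Figure D5:**
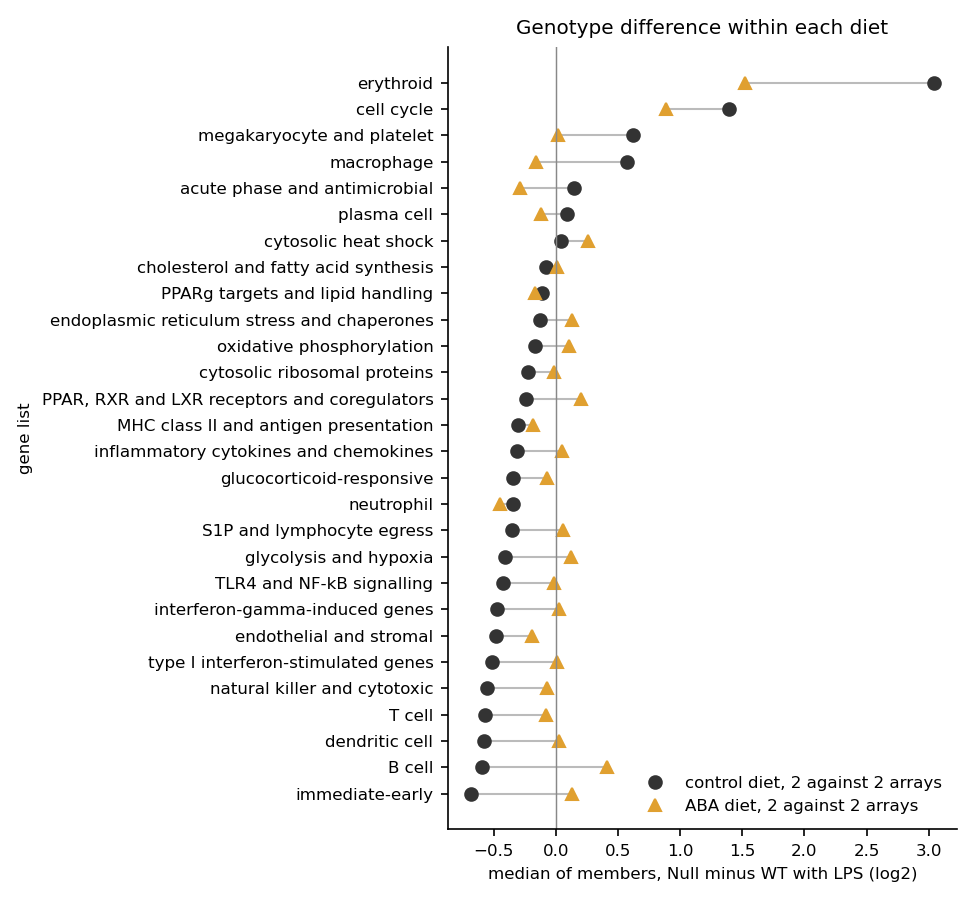
Median Null minus WT difference with LPS (x axis, log2) of the members of each list with at least 8 tested genes (y axis), on the control diet (circles) and on ABA (triangles), each from 2 against 2 arrays. The erythroid (3.04 and 1.52) and cell cycle (1.39 and 0.89) medians are positive on both diets, whereas the immediate-early median is -0.68 on the control diet and 0.13 on ABA. Within each diet the genotypes are not balanced for Xist.

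The genotype difference with LPS was last set against that without LPS. Without LPS 0 of 9931 genes passed (0%), 32 were higher (0.322%) and 30 lower (0.302%) at an unadjusted p under 0.05. The direct test over 16 arrays called 3 of 10146 genes (0.0296%), with 165 positive (1.63%) and 264 negative (2.6%) at that level. H1f7, a linker histone of male germ cells, read 3.13 and 3.10 in WT on the control diet with LPS and 4.43 and 4.64 in Null, against 3.82 and 3.77 in WT and 2.24 and 2.35 in Null without LPS (1.71 ± 0.17, adjusted p = 0.00838). Speg, a kinase of striated muscle, read 3.97 and 3.14, 6.47 and 6.11, 5.57 and 5.21, and 2.73 and 3.85 in the same order (2.95 ± 0.37, adjusted p = 0.0321), and 1700110K17Rik 3.56 and 3.59, 6.09 and 5.97, 5.64 and 5.10, and 2.53 and 3.19 (2.59 ± 0.27, adjusted p = 0.00838). The 3 genes had the same order: low in WT with LPS and in Null without LPS on the control diet only, with the ABA arrays with LPS close together (Speg 5.51 to 5.59). The H1f7 values of 2.24 and 2.35 lie at or next to the lowest value of the experiment. Scrn2 (1.54, adjusted p = 0.0603), Bpifb1 (1.81, 0.217) and Zbtb3 (1.99, 0.25) were low in the same groups. For Scrn2 4 of the 16 arrays, like 5 of those of H1f7 and of Speg, repeat 1 value. With 2 arrays a group, a shift shared by both arrays of a group cannot be told apart from genotype by LPS, and its source was not tested. Leaving out each of the 16 arrays in turn, H1f7 and 1700110K17Rik passed in 14 of 16 cases, with an adjusted p of 0.0508 without the second Null array on ABA with LPS and 0.0512 without the second WT array on the control diet with LPS. Speg passed in 3 of 16, with adjusted p from 0.00672 to 0.172, and neither with a replicate block (adjusted p = 0.0801) nor with a term for high Xist (0.0863). Without the second Null array on the control diet without LPS 7 genes passed.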

How the data were processed

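The deposited table holds the authors' log2 expression values, 1 per probe set and array, on a 1-colour mouse array with 45101 probe sets and 28 samples; GCRMA and limma are the tools listed in the submitters' processing notes, versions not given. That the values are log2 was read from their range and shared lowest value. No build or annotation is given in the sources used here. Groups came from the labels, and all 8 arrays with LPS of the 2-genotype experiment were used.

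Of the probe sets 34945 named 1 gene through GEO's platform annotation, 932 several and 9224 none; the latter groups, which include 64 control probe sets, were left out. For each of 18193 genes the brightest probe set (mean over arrays) stood for the gene. Null minus WT came from a linear model with diet as a term (limma 3.58.1 under R 4.3.3, moderated by eBayes, 5 residual and 1.82 prior degrees of freedom), with Benjamini-Hochberg adjustment over all genes tested at 0.05. Genotype by LPS used 8 group means over 16 arrays, genotype by diet 4 group means over 8. The same fit was also run on simulated data with independent noise for each gene. Those data held no repeated values and no shifts shared by genes or groups, so the run says nothing of such features. A ± after a difference is the standard error.

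The comparison, the gene lists and the tests were chosen with earlier results of these data known. The naming rule takes 10 genes in each direction (largest among called genes, otherwise smallest p), the member of each list with the smallest p, Pparg, Ppara, Ppard, Lancl2, sex-linked genes and up to 6 genes of each interaction, without clone names. Further list members and 1700110K17Rik were picked for printing with their values in view. No gene was called, so none were counted by chromosome. No replicate number paired the samples. Promoters are RefSeq's, build GRCm38.p6. Alternatives covered normalisation, filter, probe sets, variance, arrays and terms. Figures were drawn with matplotlib.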

Additional observations from a re-analysis of the deposited data

Results flagged for a closer look

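In a number of cases 1 array stood apart from the other 3 of its genotype by Dixon's criterion for 4 values. For values without ties chance meets it in about 1 of 20 groups. Where the other 3 arrays share a value, as for Lipe, Ppara, Cela3b and Ppard, any small step meets it and that rate does not hold. The number of groups examined is not given, so the cases are not set against chance. Of the cases, 6 involved the first Null array on the control diet: Bub1 at 7.52 (others 6.17 to 6.19), Vegfa at 3.45 (3.78 to 3.81), Cd3g at 7.24 (7.80 to 7.91), Cela3b at 6.53 (6.21 on all others), Ppara at 2.62 (2.24 on all others) and Lipe at 4.65 (4.61 on all others). The second array on ABA stood low in both genotypes for Lancl2, at 5.43 in WT (others 7.01 to 7.14) and 6.23 in Null (7.27 to 7.47), and in WT for Mzb1, at 10.9 (11.34 to 11.41). Cd5l read 10.2 on the first WT array on ABA (others 6.95 to 7.31), Stard4 5.18 on the second WT array on the control diet (6.05 to 6.18), Ppard 4.03 on the first (3.80 on all others) and Map3k14 3.38 on the second Null array on the control diet (3.52 to 3.53).

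The genotype difference differed between LPS and no LPS by an adjusted p under 0.05 for 1700110K17Rik (2.59), H1f7 (1.71) and Speg (2.95). All rest on low values in WT with LPS and in Null without LPS on the control diet, with 2 arrays in each group.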

How the results depend on the processing

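No gene passed the adjusted threshold for Null against WT with LPS under any alternative (0 in each). The genes named by smallest p kept their direction in all 26 alternatives. They were chosen on these same arrays, so a kept direction gives no separate support. Lancl2, not chosen by its p, also kept its direction, with differences of 0.02 to 1.19. Counts at an unadjusted p under 0.05 moved more. Main counts were 314 genes higher and 361 lower, 17 erythroid, 24 cell cycle and 6 neutrophil members. Array weights gave 694 higher and 1678 lower. The spread of all 16 arrays gave 137 higher, with 10 erythroid, 6 cell cycle and 2 neutrophil members, and 4 group means gave 598 lower. The control diet alone gave 518 higher and 1917 lower, with 10 erythroid, 14 cell cycle and 3 neutrophil members, and ABA alone 203 and 103, with 1, 13 and 3. Neutrophil members numbered 3 after quantile normalisation, 3 after median centring, which shifts all differences by 0.09 upward, and 1 without the diet term. Leaving out 1 array at a time gave 194 to 413 genes higher, 153 to 899 lower and 7 to 17 erythroid members; genes lower numbered 153 without the first Null array on the control diet, 159 and 188 without the second and first WT arrays on the control diet, 802 without the first Null array on ABA and 899 without the first WT array on ABA, and genes higher 194 and 198 without the second WT and first Null arrays on the control diet. The PPARg list median ran from -0.19 to 0.02. An alternative chosen after seeing the data left out the 2 arrays highest for Adipoq, with 4 erythroid, 15 cell cycle and 3 neutrophil members. Another, also so chosen, used the erythroid mean as a covariate, though that mean itself separated the genotypes. It gave 130 genes higher and 69 lower, 3 cell cycle members (median 0.48) and 1 neutrophil member. The cause of these shifts was not tested. The replicate numbers do not pair the samples (correlations -0.03 to 0.18); with a replicate block 298 genes were higher and 366 lower, 0 passed, the genotype by LPS test called 2 genes and the genotype by diet test 0, and with a term for high Xist these were 2 and 0. Leaving out 1 array, also chosen after seeing the data, gave 0 to 7 genes past the threshold and 230 to 1370 at an unadjusted p under 0.05 for genotype by LPS, and 0 and 765 to 2031 for genotype by diet. Signals near the lowest value limit Pparg, Ppara and other dim genes.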
